A study of Mus musculus with 16 samples.

Results

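The 34 genes described here are transcripts of macrophages and monocytes, measured in mouse donor T cells. They were chosen by name from textbook markers, with earlier results of these data known. Counts of called genes therefore describe the set and are no independent test of it. A probe was taken for a gene when its accession belonged to that gene. Of the 34 genes, 33 had a named probe among the 20972 gene symbols on the array, Cd68 had none, and 29 were bright enough to test. Where a gene had several probes, the one with the highest mean over the 16 arrays was used (40 member probes in all).

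Macrophages take up dead cells, immune complexes and spent red cells, and monocytes are their circulating relatives. Their transcripts include those of complement C1q, Fc receptors and their signalling adaptors, scavenger receptors, lysozyme and the receptor for colony-stimulating factor 1. In the spleen, red pulp macrophages form a separate population that recycles iron under the transcription factor Spic. T cells are not the usual source of most of these transcripts, although Lgals3, Tyrobp, Fcer1g and Itgam are also known from activated or cytotoxic lymphocytes.

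The study asked what donor T cells look like in ovarian graft-versus-host disease in mice, and profiled them after sorting. All samples were female on a C57BL/6 background, and no genotype or age is stated in the labels. The strains of donors and recipients are not given separately here. There were 6 groups: CD4+ and CD8+ cells from the spleen after syngeneic transplantation (2 and 3 arrays), the same from the spleen of allogeneic recipients (2 and 3 arrays), and those from allogeneic recipients' ovaries (2 and 4 arrays). At most 10000 cells were sorted in a pair of rounds for each sample, so each profile comes from amplified RNA. No ovarian group after syngeneic transplantation was analysed here. The labels do not say that replicates came from separate animals or whether animals were pooled, so p-values measure the spread between these samples, which may be technical. In sorted bulk samples, fewer cells of a type and less RNA per cell cannot be told apart.

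A level is the log2 background-subtracted signal of a probe minus the array's 75th percentile, so 0 marks that percentile. The percentile itself ran from 67.6 to 449.7 signal units, and 41.8% to 59.4% of spots were well above background. The 4 CD4 arrays of the ovary and allogeneic spleen were the dimmest (67.6 to 140.7), and replicate 2 of each lay lowest. Cd3e stood between 6.75 and 7.89 on every array. Cd4 stood between 4.48 and 5.56 on CD4 arrays and between 1.42 and 2.45 on CD8 arrays, and Cd8a was well above background on all 10 CD8 arrays and on 0 of 6 CD4 arrays. Cd4 was above background on all 10 CD8 arrays as well. Cd8b1 was above background on 5 of 6 CD4 arrays, at -2.82 to 0.17 over those arrays, beside 5.36 to 6.74 on CD8 arrays. The levels of these T cell markers thus went with the sort labels, while detection of Cd4 and Cd8b1 did not. Of 32 measured myeloid genes, all but Lgals3, 15 to 30 were also above background on each array.

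CD4 samples carried more of these transcripts than CD8 samples. Of 29 tested genes, 25 were lower in CD8 than in CD4 cells of the ovary, where 8.05% of all 26891 features were lower and 7.12% higher. In the allogeneic spleen 28 were lower and 1, Lgals3, was higher, against 13.7% of all features lower and 13% higher. In the syngeneic spleen 11 were lower and 0 higher, against 2.52% of all features lower and 1.13% higher. A call means an adjusted p under 0.05 in limma, with Benjamini-Hochberg adjustment over all features. The median difference of the 29 genes was -3.63 in the ovary, -3.50 in the allogeneic spleen and -1.82 in the syngeneic spleen, beside 0.059, -0.11 and 0.11 over all features. With normexp background correction and quantile normalization the members' medians were -2.02, -2.45 and -1.18, and with a common signal floor -2.59, -2.89 and -1.46. Without a filter on dim probes, all features had medians of -0.50, -0.65 and 0.13, beside -3.31, -2.89 and -1.65 for the members. The size of the difference thus depended on how dim signal was treated.

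Some of these genes entered the test only because the CD4 samples were bright. Fcgr1, Msr1, Mrc1, Mertk and Slc40a1 passed the filter on dim probes through CD4 groups alone, so their differences between subsets were partly fixed by that filter. Trem2 passed through the 2 ovarian groups alone and Msr1 through ovarian CD4 cells alone, which in the same way favoured a higher ovarian level. Among the 14 members above background on all 16 arrays, 10 were lower in CD8 cells of the ovary, 13 in the allogeneic spleen and 3 in the syngeneic spleen. Among all 16954 such features, 10.5%, 17.5% and 1.98% were lower. Values of CD4 and CD8 arrays did not overlap for 28, 29 and 21 of the 29 genes in these sources, beside 45.7%, 48.1% and 33.6% of all features.

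**Figure D1:**
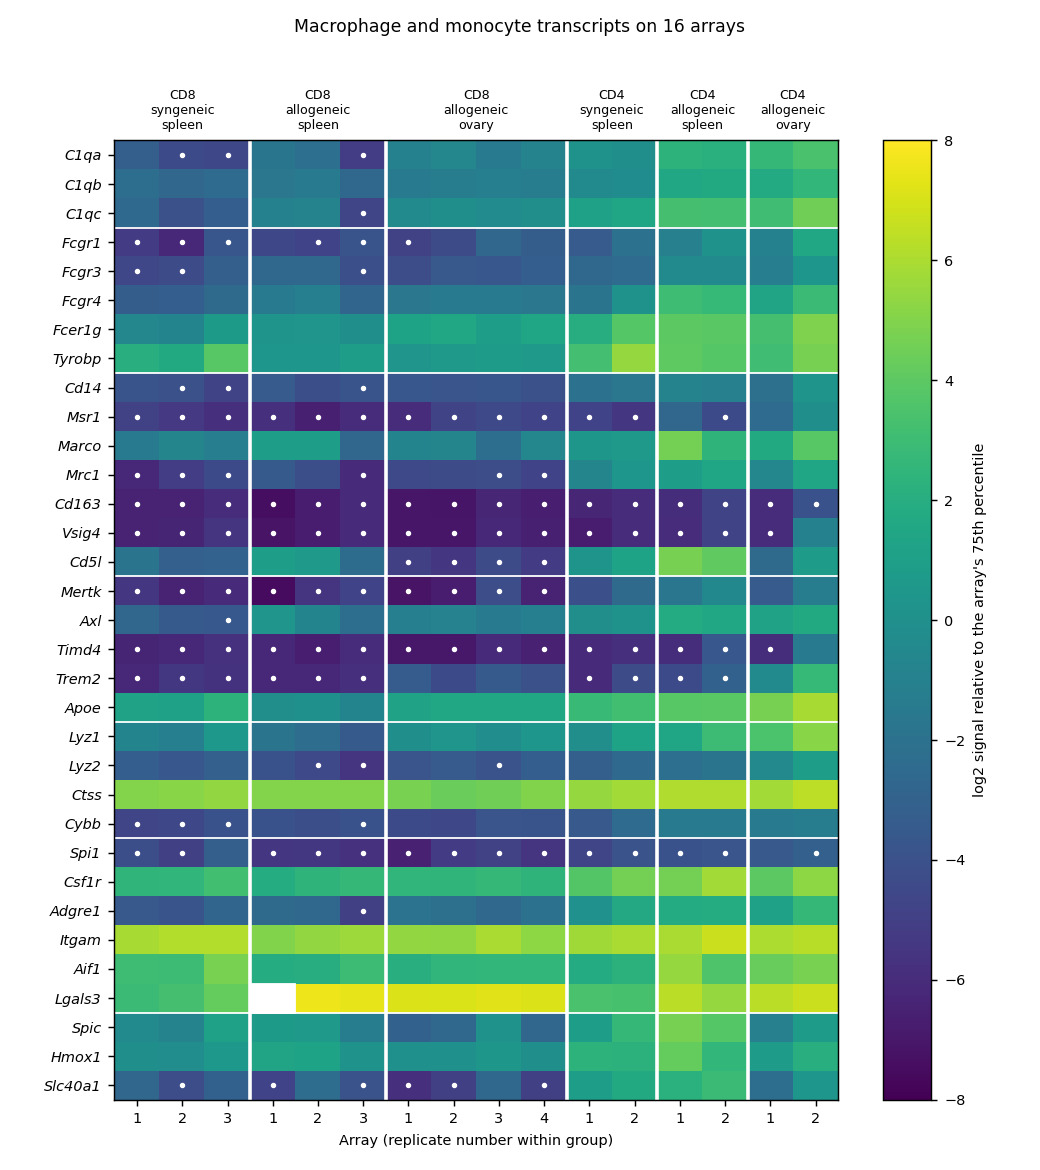
Levels of the 33 measured genes (rows, grouped by role) on 16 arrays (columns, by group and replicate number), as log2 signal relative to each array's 75th percentile. White dots mark spots not well above background and the white cell is a spot left out as an outlier. The CD4 columns at right are brighter than the CD8 columns for most rows, while Cd163, Vsig4, Timd4 and Spi1 are dark nearly throughout.

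The ovarian count rested on ovarian CD4 replicate 2, a dim array with high myeloid levels: without it, 13 of the 29 genes were called in place of 25. Without syngeneic CD4 replicate 2, 2 genes were called in the syngeneic spleen in place of 11. Without syngeneic CD4 replicate 1 there were 7, and without syngeneic CD8 replicate 2 there were 6. Leaving out any 1 array of the allogeneic spleen left 25 to 28 calls. With only the groups compared in the fit, 3.69% of all features were called in the allogeneic spleen. There C1qa, C1qc, Fcgr3, Msr1, Marco, Cd5l, Axl, Trem2, Lyz2, Ctss, Itgam, Aif1, Lgals3 and Hmox1 lost their calls (adjusted p = 0.0537 to 0.158). The 16 arrays lay on 2 slides with every group on both. With the slide as a block, 26, 29 and 13 genes were called in ovary, allogeneic and syngeneic spleen, beside 22.5%, 33.4% and 4.93% of all features in either direction. On slide 1 alone the calls numbered 21, 26 and 8, beside 11.1%, 36.8% and 2.28%, with medians of -2.86, -3.49 and -1.53. On slide 2 alone 0 genes were called in each source, where 3, 0 and 0 of all features were, and the medians were -4.15, -3.92 and -2.33. A negative difference was seen for 28 of 29 genes on either slide in both allogeneic sources.

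**Figure D2:**
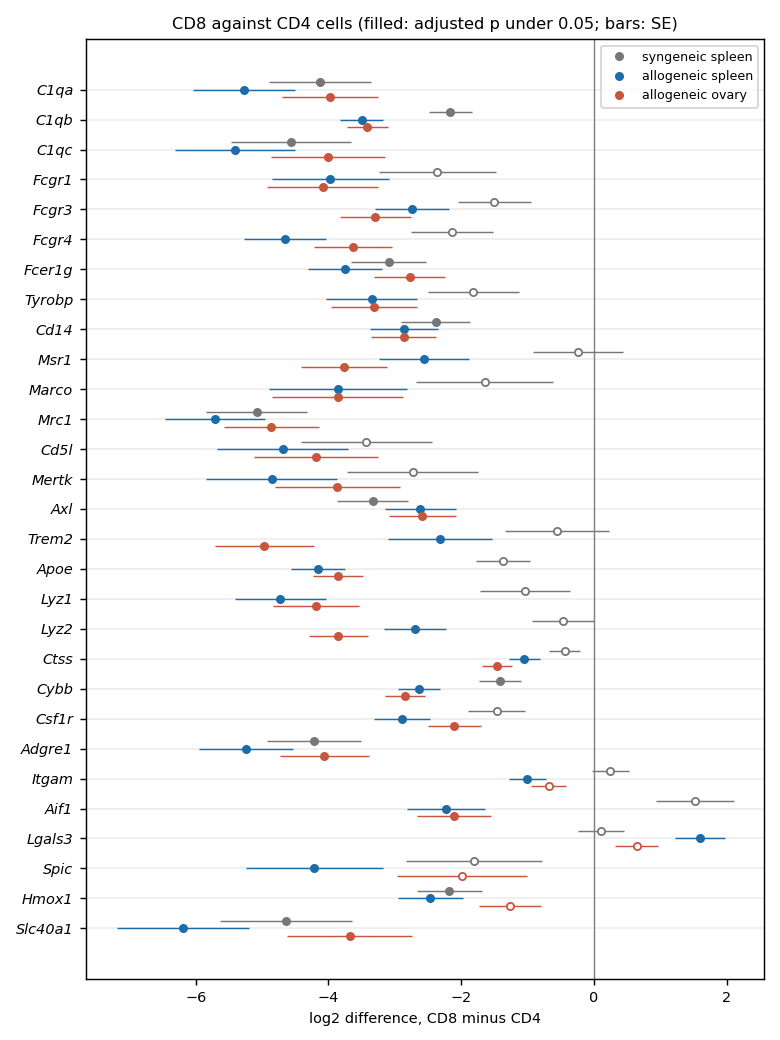
Difference in level between CD8 and CD4 cells (log2, CD8 minus CD4) for 29 tested genes in 3 sources, with SE bars. Filled points passed an adjusted p under 0.05 and open points did not. Nearly all points lie left of 0, and Lgals3 in the allogeneic spleen is the 1 filled point to the right.

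A short sequence motif was frequent in the promoters of these genes. The windows of 5 genes with a single match are shown as examples, from the complement, Fc receptor, tissue macrophage and lipid-sensing groups. All 5 were lower in CD8 cells of the ovary. All but Trem2, which was not above background there, were also lower in CD8 cells of the allogeneic spleen. Most tested members shared this direction, with or without a match. Of tested members whose windows held no match, Lyz1, Lyz2, Fcer1g and Mertk were lower in both sources. Spic was called lower in the allogeneic spleen only, and Lgals3 in neither. Whether the motif bears on the difference between subsets was not tested. The motif is GAGGAA, the core bound by ETS-family factors such as PU.1, which the member gene Spi1 encodes. It was searched on both strands (TTCCTC on the other) from 250 bases before to 50 bases after the RefSeq start sites of build GRCm38.p6. It occurred in 17 of 25 matched members (68%) and in 31.25% of 27025 genes, or 28.28% of all 32851 windows. The longer form GAGGAAGT, which overlaps the core, was present in C1qc, Ctss and Fcgr4 (12% of members) and in 3.689% of genes. These are matches of letters only, and binding was not measured here. The 250 bases before each start site follow, 5′ to 3′ on the gene's strand, with the motif in capitals, in its longer form for C1qc and Fcgr4. C1qb lies at chr4:136886201-136886450, minus strand, C1qc at chr4:136892915-136893164, minus strand, and Fcgr4 at chr1:171018676-171018925, plus strand. Cd5l lies at chr3:87357631-87357880, plus strand, and Trem2 at chr17:48346151-48346400, plus strand.
C1qb: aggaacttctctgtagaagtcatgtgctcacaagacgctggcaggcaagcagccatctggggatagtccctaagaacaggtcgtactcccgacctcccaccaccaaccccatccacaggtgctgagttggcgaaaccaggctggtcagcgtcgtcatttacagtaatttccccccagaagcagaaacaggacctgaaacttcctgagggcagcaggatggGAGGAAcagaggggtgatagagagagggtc
C1qc: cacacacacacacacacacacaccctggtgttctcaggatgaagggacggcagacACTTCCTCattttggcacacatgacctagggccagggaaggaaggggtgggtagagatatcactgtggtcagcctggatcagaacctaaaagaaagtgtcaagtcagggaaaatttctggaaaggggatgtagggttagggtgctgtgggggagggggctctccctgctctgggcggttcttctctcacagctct
Fcgr4: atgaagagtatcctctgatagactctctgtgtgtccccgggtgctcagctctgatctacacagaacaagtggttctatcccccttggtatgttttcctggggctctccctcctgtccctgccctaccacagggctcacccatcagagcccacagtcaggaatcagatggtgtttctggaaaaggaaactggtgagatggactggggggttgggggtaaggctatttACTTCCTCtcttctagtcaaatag
Cd5l: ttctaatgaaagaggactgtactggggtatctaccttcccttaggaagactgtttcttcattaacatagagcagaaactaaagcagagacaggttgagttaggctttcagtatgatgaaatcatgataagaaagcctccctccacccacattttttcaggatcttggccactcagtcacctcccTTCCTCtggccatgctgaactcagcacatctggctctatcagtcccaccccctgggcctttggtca
Trem2: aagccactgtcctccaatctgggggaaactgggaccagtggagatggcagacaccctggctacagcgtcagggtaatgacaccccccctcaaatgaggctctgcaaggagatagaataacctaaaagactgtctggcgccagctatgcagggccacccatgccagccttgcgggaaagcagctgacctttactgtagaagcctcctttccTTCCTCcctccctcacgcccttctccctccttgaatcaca
The core (GAGGAA or TTCCTC) begins 30 bases before the start site in C1qb, 193 in C1qc, 22 in Fcgr4, 66 in Cd5l and 40 in Trem2. An antioxidant response element (TGACTCAGC, either strand) was found in 0 of 25 members and 0.5032% of genes.

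The 3 chains of complement C1q, which tags dying cells and immune complexes, were lower in CD8 than in CD4 cells in every source. C1qa levels in CD4 cells were 2.64 and 3.43 in the ovary, 2.34 and 2.14 in the allogeneic spleen and 0.20 and -0.039 in the syngeneic spleen. In CD8 cells they were -0.99, -0.57, -1.39 and -0.83 in the ovary, -1.81, -2.17 and -5.12 in the allogeneic spleen and -3.19, -4.43 and -4.52 in the syngeneic spleen. No CD8 array reached the lowest CD4 array, and allogeneic splenic CD8 replicate 3 lay far below replicates 1 and 2. C1qb stood in CD4 cells at 1.76 and 2.61 in the ovary, 1.50 and 1.69 in the allogeneic spleen and -0.34 and -0.24 in the syngeneic spleen. Its CD8 levels were -1.32, -1.24, -1.11 and -1.27 in the ovary, -1.66, -1.41 and -2.63 in the allogeneic spleen and -2.19, -2.73 and -2.43 in the syngeneic spleen. C1qb was above background on every array, and its difference was -3.42 ± 0.31 (SE, adjusted p = 4.23e-05) in the ovary, which is 10.7-fold. In the allogeneic spleen it was -3.50 ± 0.33 (SE, adjusted p = 4.21e-05) and in the syngeneic spleen -2.16 ± 0.33 (SE, adjusted p = 0.00239). For C1qc, whose promoter holds the longer motif, CD4 levels were 3.11 and 4.53 in the ovary, 3.31 and 3.19 in the allogeneic spleen and 1.16 and 1.44 in the syngeneic spleen. CD8 levels of C1qc were -0.31, -0.056, -0.30 and -0.087 in the ovary, -0.95, -0.86 and -4.68 in the allogeneic spleen and -2.54, -4.06 and -3.20 in the syngeneic spleen. The differences of C1qa and C1qc ran from -5.41 to -3.98 over the 3 sources, with adjusted p between 0.000679 and 0.0132. Without ovarian CD4 replicate 2 the ovarian calls of C1qa and C1qc were lost (adjusted p = 0.0542 and 0.116), while C1qb kept its call in all 3 sources under every array left out. C1qa and C1qc lost their syngeneic calls without either syngeneic CD4 array, and C1qc also without syngeneic CD8 replicate 2 (highest adjusted p = 0.0748 and 0.122).

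Among the Fc receptors and their adaptors, all 5 genes were lower in CD8 cells of both allogeneic sources. Fcgr4, a receptor for IgG2 antibodies, stood in CD4 cells at 1.33 and 2.92 in the ovary, 3.05 and 2.73 in the allogeneic spleen and -1.87 and 0.13 in the syngeneic spleen. In CD8 cells it stood at -1.63, -1.43, -1.32 and -1.66 in the ovary, -1.45, -1.07 and -2.77 in the allogeneic spleen and -3.31, -3.24 and -2.47 in the syngeneic spleen. The difference was -3.63 ± 0.59 (SE, adjusted p = 0.00218) in the ovary and -4.65 ± 0.62 (SE, adjusted p = 0.000403) in the allogeneic spleen. In the syngeneic spleen, where the 2 CD4 arrays lay far apart, it was -2.14 ± 0.62 (SE, adjusted p = 0.0937). Fcgr3, a low-affinity IgG receptor, gave CD4 levels of -1.15 and 0.43 in the ovary, -0.37 and -0.43 in the allogeneic spleen and -2.66 and -2.41 in the syngeneic spleen. CD8 arrays gave -4.24, -3.54, -3.63 and -3.20 in the ovary, -2.67, -2.65 and -4.12 in the allogeneic spleen and -4.57, -4.35 and -3.18 in the syngeneic spleen. Fcgr1, the high-affinity IgG receptor, gave -0.96 and 1.57 in the ovary, -1.01 and 0.20 in the allogeneic spleen and -3.40 and -1.99 in the syngeneic spleen in CD4 cells. In CD8 cells it was above background on 4 of 10 arrays. Both were lower in CD8 cells of the ovary (Fcgr3 -3.29 ± 0.53, adjusted p = 0.00208, and Fcgr1 -4.09 ± 0.83, adjusted p = 0.00745).

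Fcer1g and Tyrobp, the adaptors that carry the activation signal of Fc and related receptors, are also transcribed in natural killer cells and some cytotoxic T cells. Fcer1g levels in CD4 cells were 3.27 and 4.90 in the ovary, 3.99 and 3.92 in the allogeneic spleen and 1.98 and 3.76 in the syngeneic spleen. In CD8 cells they were 1.30, 1.52, 0.94 and 1.48 in the ovary, 0.27, 0.33 and -1.7e-05 in the allogeneic spleen and -0.61, -0.76 and 0.70 in the syngeneic spleen. It was lower in CD8 cells of all 3 sources, with differences of -2.78 ± 0.53 (adjusted p = 0.00566), -3.75 ± 0.56 (adjusted p = 0.000815) and -3.09 ± 0.56 (adjusted p = 0.00759) in ovary, allogeneic and syngeneic spleen. Tyrobp levels in CD4 cells were 3.09 and 4.71 in the ovary, 4.03 and 3.80 in the allogeneic spleen and 3.23 and 5.46 in the syngeneic spleen. In CD8 cells they were 0.32, 0.60, 0.85 and 0.59 in the ovary, 0.40, 0.38 and 0.93 in the allogeneic spleen and 2.02, 1.75 and 3.81 in the syngeneic spleen. Syngeneic CD8 arrays lay above the other CD8 arrays for Tyrobp, and replicate 3 was the highest of them. Its difference was -3.31 ± 0.65 (SE, adjusted p = 0.00624) in the ovary and -3.35 ± 0.68 (SE, adjusted p = 0.00463) in the allogeneic spleen. Without ovarian CD4 replicate 2, the ovarian calls of Fcgr1, Fcer1g and Tyrobp were lost (adjusted p = 0.118, 0.0904 and 0.0953). The syngeneic call of Fcer1g was lost without syngeneic CD4 replicate 2 (adjusted p = 0.132), and the allogeneic call of Fcgr1 without allogeneic CD4 replicate 2 (adjusted p = 0.058).

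The pattern-recognition and scavenger receptors were lower in CD8 cells of both allogeneic sources for all 5 tested genes. Mrc1, the mannose receptor, gave CD4 levels of -0.61 and 1.46 in the ovary, 0.89 and 1.43 in the allogeneic spleen and -0.73 and 0.38 in the syngeneic spleen. In CD8 cells, where 4 of 10 arrays were above background, they were -4.47, -4.29, -4.19 and -4.80 in the ovary, -3.46, -4.18 and -6.01 in the allogeneic spleen and -6.22, -5.12 and -4.43 in the syngeneic spleen. The difference was -4.86 ± 0.72 (SE, adjusted p = 0.00117) in the ovary and -5.71 ± 0.76 (SE, adjusted p = 0.000386) in the allogeneic spleen. In the syngeneic spleen, with 0 of 3 CD8 arrays above background, CD4 cells were at least 15.1-fold higher (adjusted p = 0.00213). Msr1, the class A scavenger receptor, was above background on both ovarian CD4 arrays (-2.39 and -0.038), on allogeneic splenic CD4 replicate 1 (-2.74) and on 0 of 10 CD8 arrays. Ovarian CD4 cells were at least 9.94-fold higher than ovarian CD8 cells (adjusted p = 0.00291). In the allogeneic spleen, with 1 of 2 CD4 arrays above background, the CD8 minus CD4 difference was -2.56 (adjusted p = 0.0167). Its size is uncertain, and the splenic difference was 0 under a common signal floor. That splenic call was lost without allogeneic CD4 replicate 1, the array that measured it (adjusted p = 0.131), and without CD8 replicate 2 (0.055). A second probe of Msr1 gave the same direction in both.

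Marco, a scavenger receptor of marginal zone macrophages, stood in CD4 cells at 1.71 and 3.83 in the ovary, 4.69 and 2.41 in the allogeneic spleen and 0.44 and 0.66 in the syngeneic spleen. CD8 arrays gave -0.80, -0.73, -2.24 and -0.60 in the ovary, 0.91, 0.88 and -2.71 in the allogeneic spleen and -1.37, -0.75 and -1.17 in the syngeneic spleen. CD4 and CD8 arrays did not overlap within a source, and replicates of a CD4 group differed by over 2 log2 units in both allogeneic sources. The difference was -3.86 ± 0.98 (SE, adjusted p = 0.0213) in the ovary and -3.86 ± 1.03 (SE, adjusted p = 0.0175) in the allogeneic spleen. Each call was lost without 1 CD4 array, ovarian replicate 2 (adjusted p = 0.236) and allogeneic replicate 1 (adjusted p = 0.129). Cd14, the co-receptor for lipopolysaccharide, gave CD4 levels of -2.12 and 0.27 in the ovary, -0.87 and -1.03 in the allogeneic spleen and -1.97 and -1.65 in the syngeneic spleen. Its CD8 levels were -3.67, -3.78, -3.72 and -4.01 in the ovary, -3.42, -4.15 and -3.86 in the allogeneic spleen and -3.83, -4.02 and -4.74 in the syngeneic spleen. It was lower in CD8 cells, with differences of -2.87 ± 0.49 (adjusted p = 0.00288), -2.86 ± 0.52 (adjusted p = 0.00237) and -2.38 ± 0.52 (adjusted p = 0.0224) in the order ovary, allogeneic and syngeneic spleen. The syngeneic call was lost without any of 4 arrays (syngeneic CD4 replicates 1 and 2, CD8 replicates 2 and 3), with a highest adjusted p of 0.199. Cd163, the haemoglobin scavenger receptor, was above background on 0 of 16 arrays, and Vsig4, a complement receptor, on ovarian CD4 replicate 2 only (-0.98).

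Cd5l, a secreted protein of tissue macrophages in spleen and liver, was not above background in ovarian CD8 samples and stood highest in allogeneic splenic CD4 samples. CD4 levels were -2.49 and 0.84 in the ovary, 4.72 and 4.09 in the allogeneic spleen and 0.29 and 1.28 in the syngeneic spleen. CD8 levels were -5.00, -5.48, -4.34 and -5.22 in the ovary, 0.89, 0.58 and -2.32 in the allogeneic spleen and -1.87, -3.07 and -2.97 in the syngeneic spleen, and 0 of 4 ovarian arrays were above background. In the ovary CD4 cells were at least 13.5-fold higher than CD8 cells (adjusted p = 0.012). The allogeneic splenic difference was -4.69 ± 0.99 (SE, adjusted p = 0.00538). The ovarian call was lost without ovarian CD4 replicate 2 (adjusted p = 0.183).

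**Figure D3:**
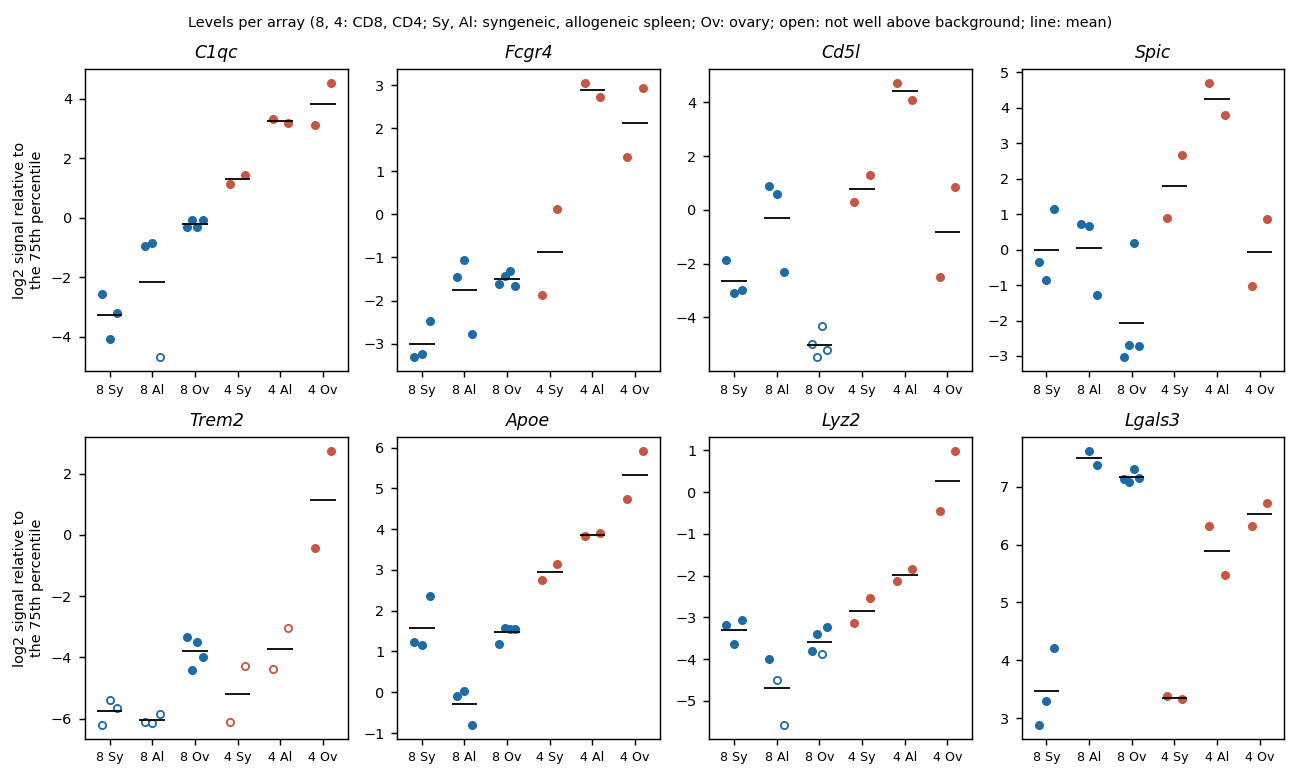
Levels of 8 genes on each array, by group, as log2 signal relative to the array's 75th percentile, with CD8 groups in blue and CD4 groups in red. Open points were not well above background and lines are group means. Cd5l points lie higher in allogeneic spleen than in ovary, those of Spic do so in CD4 cells, Trem2 is above background in the ovary only, and Lgals3 is high in both subsets after allogeneic transplantation.

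Genes of apoptotic-cell uptake and lipid handling followed the same direction between subsets. Apoe, the lipid carrier that macrophages secrete, stood in CD4 cells at 4.73 and 5.92 in the ovary, 3.83 and 3.90 in the allogeneic spleen and 2.75 and 3.16 in the syngeneic spleen. In CD8 cells it stood at 1.19, 1.59, 1.56 and 1.55 in the ovary, -0.10, 0.039 and -0.80 in the allogeneic spleen and 1.23, 1.17 and 2.35 in the syngeneic spleen. The CD8 minus CD4 difference was -3.85 ± 0.38 (SE, adjusted p = 7.53e-05) in the ovary and -4.15 ± 0.40 (SE, adjusted p = 5.41e-05) in the allogeneic spleen, and both calls held under every array left out. Trem2, a lipid-sensing receptor that pairs with Tyrobp, was above background on all 6 ovarian arrays and on 0 of 10 splenic arrays. Its ovarian levels were -0.43 and 2.74 in CD4 cells and -3.33, -4.41, -3.49 and -4.00 in CD8 cells, a difference of -4.96 ± 0.74 (SE, adjusted p = 0.00126). A call in the allogeneic spleen (adjusted p = 0.0455) has no fold, since neither group was above background, and was lost without any of 4 of the 5 arrays (highest adjusted p = 0.275), allogeneic CD4 replicate 1 being the fifth.

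Mertk and Axl are receptor tyrosine kinases that bind dying cells through bridging proteins. Mertk gave CD4 levels of -3.41 and -1.22 in the ovary, -1.71 and -0.52 in the allogeneic spleen and -4.08 and -2.46 in the syngeneic spleen and was above background on 0 of 10 CD8 arrays. CD4 cells were at least 4.81-fold higher in the ovary (adjusted p = 0.0172) and at least 11.5-fold higher in the allogeneic spleen (adjusted p = 0.00455), and the ovarian call was lost without ovarian CD4 replicate 2 (adjusted p = 0.212). Axl levels in CD4 cells were 1.20 and 1.71 in the ovary, 1.86 and 1.62 in the allogeneic spleen and -0.065 and 0.24 in the syngeneic spleen. In CD8 cells they were -1.11, -0.89, -1.40 and -1.12 in the ovary, 0.35, -0.78 and -2.19 in the allogeneic spleen and -2.70, -3.47 and -3.56 in the syngeneic spleen. Axl was lower in CD8 cells of all 3 sources, with differences of -2.59 ± 0.51 (adjusted p = 0.00625), -2.62 ± 0.54 (adjusted p = 0.00462) and -3.33 ± 0.54 (adjusted p = 0.00344) in ovary, allogeneic and syngeneic spleen. The first was lost without ovarian CD4 replicate 2 (adjusted p = 0.0704) and the last without syngeneic CD4 replicate 2 (adjusted p = 0.053). Timd4, a phosphatidylserine receptor of resident macrophages, was above background on ovarian CD4 replicate 2 only (-1.38).

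Lysozymes, cathepsin S and the oxidase subunit Cybb were lower in CD8 cells of both allogeneic sources. Lyz1 and Lyz2 are near-identical copies, so their probes may share signal. Lyz1 stood in CD4 cells at 3.47 and 5.18 in the ovary, 1.44 and 2.96 in the allogeneic spleen and -0.084 and 1.25 in the syngeneic spleen. CD8 arrays gave -0.022, 0.34, -0.15 and 0.42 in the ovary, -1.85, -2.25 and -3.47 in the allogeneic spleen and -0.81, -1.09 and 0.54 in the syngeneic spleen. Lyz2, the myeloid lysozyme, stood in CD4 cells at -0.45 and 0.98 in the ovary, -2.13 and -1.85 in the allogeneic spleen and -3.14 and -2.54 in the syngeneic spleen. In CD8 cells it stood at -3.81, -3.41, -3.88 and -3.24 in the ovary, -3.99, -4.49 and -5.58 in the allogeneic spleen and -3.19, -3.63 and -3.07 in the syngeneic spleen. Ovarian CD4 cells held the highest levels of both, and allogeneic splenic CD8 cells the lowest. The ovarian differences were -4.18 ± 0.65 (SE, adjusted p = 0.00165) for Lyz1 and -3.85 ± 0.44 (SE, adjusted p = 0.000218) for Lyz2. In the allogeneic spleen they were -4.72 ± 0.68 (SE, adjusted p = 0.00066) and -2.69 ± 0.47 (SE, adjusted p = 0.0019), and in the syngeneic spleen neither passed (-1.04 and -0.46).

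Ctss, the cathepsin that trims the invariant chain in antigen-presenting cells, differed least among the called genes of this group. Its CD4 levels were 5.78 and 6.43 in the ovary, 6.11 and 6.07 in the allogeneic spleen and 5.46 and 5.80 in the syngeneic spleen. CD8 arrays gave 4.77, 4.31, 4.51 and 4.99 in the ovary, 5.06, 5.03 and 5.03 in the allogeneic spleen and 5.04, 5.13 and 5.42 in the syngeneic spleen. The difference was -1.46 ± 0.22 (SE, adjusted p = 0.00142) in the ovary, which is 2.75-fold, and -1.05 ± 0.23 (SE, adjusted p = 0.00711) in the allogeneic spleen. Cybb, the membrane subunit of the phagocyte oxidase, gave CD4 levels of -1.34 and -1.24 in the ovary, -1.37 and -1.44 in the allogeneic spleen and -3.53 and -2.41 in the syngeneic spleen. Its CD8 levels were -4.38, -4.51, -3.77 and -3.85 in the ovary, -3.98, -4.16 and -3.99 in the allogeneic spleen and -4.63, -4.53 and -4.00 in the syngeneic spleen. It differed by -2.84 ± 0.30 (SE, adjusted p = 0.000127) and -2.64 ± 0.32 (SE, adjusted p = 0.000212) in ovary and allogeneic spleen. In the syngeneic spleen, with 0 of 3 CD8 arrays above background, CD4 cells were at least 2.18-fold higher (adjusted p = 0.0282), a call lost without syngeneic CD4 replicate 2 (adjusted p = 0.359) or CD8 replicate 1 or 2 (0.104 and 0.0968).

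Lineage regulators and surface markers split. Spi1, which encodes PU.1, was above background on 2 of 16 arrays (ovarian CD4 replicate 1 and syngeneic CD8 replicate 3) and was not tested. Csf1r, the receptor that macrophages need to survive, gave CD4 levels of 3.99 and 5.25 in the ovary, 4.66 and 5.78 in the allogeneic spleen and 3.74 and 4.67 in the syngeneic spleen. CD8 arrays gave 2.51, 2.49, 2.68 and 2.40 in the ovary, 1.93, 2.38 and 2.67 in the allogeneic spleen and 2.50, 2.54 and 3.18 in the syngeneic spleen. The difference was -2.10 ± 0.40 (SE, adjusted p = 0.00565) in the ovary and -2.89 ± 0.43 (SE, adjusted p = 0.000732) in the allogeneic spleen. The other 2 probes of Csf1r fell the same way in the allogeneic spleen (-1.26 and -1.66), but 1 of them was higher in CD8 cells of the syngeneic spleen (0.29, not called). Adgre1, an adhesion receptor widely used as a mouse macrophage marker, gave CD4 levels of 1.18 and 2.64 in the ovary, 1.85 and 1.91 in the allogeneic spleen and 0.078 and 1.64 in the syngeneic spleen. Its CD8 levels were -1.90, -2.09, -2.60 and -2.02 in the ovary, -2.44, -2.66 and -5.00 in the allogeneic spleen and -3.51, -3.82 and -2.75 in the syngeneic spleen. Adgre1 was lower in CD8 cells, with differences of -4.06 ± 0.67 (adjusted p = 0.00244), -5.24 ± 0.71 (adjusted p = 0.00044) and -4.22 ± 0.71 (adjusted p = 0.00463) in ovary, allogeneic and syngeneic spleen. A second probe was lower in all 3 as well. The ovarian call of Csf1r was lost without ovarian CD4 replicate 2 (adjusted p = 0.09), and the syngeneic call of Adgre1 without syngeneic CD4 replicate 2 (adjusted p = 0.0888).

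Itgam, Aif1 and Lgals3 departed from the other members. Itgam, the CD11b integrin chain, gave CD4 levels of 6.05 and 6.29 in the ovary, 6.00 and 6.71 in the allogeneic spleen and 5.69 and 5.97 in the syngeneic spleen. CD8 arrays gave 5.40, 5.33, 5.98 and 5.25 in the ovary, 4.98, 5.41 and 5.67 in the allogeneic spleen and 5.91, 6.16 and 6.18 in the syngeneic spleen. The allogeneic splenic difference was -1.0 ± 0.28 (SE, adjusted p = 0.0203) on this probe but 0.017 and 0.49 on the other 2 probes, so the gene's direction was not settled by its probes. That call was also lost without allogeneic CD8 replicate 1 or CD4 replicate 2 (adjusted p = 0.0715 and 0.18). Aif1, which encodes the macrophage protein IBA1, stood in CD4 cells at 4.30 and 4.80 in the ovary, 5.44 and 3.62 in the allogeneic spleen and 1.87 and 2.29 in the syngeneic spleen. CD8 arrays gave 2.04, 2.54, 2.58 and 2.58 in the ovary, 1.94, 1.98 and 2.98 in the allogeneic spleen and 3.03, 2.97 and 4.78 in the syngeneic spleen. It was lower in CD8 cells of the ovary (-2.11 ± 0.56, adjusted p = 0.0251) and allogeneic spleen (-2.23 ± 0.59, adjusted p = 0.016), and every syngeneic CD8 array was above both syngeneic CD4 arrays (1.52 ± 0.59, adjusted p = 0.249, not called). Its ovarian call was lost without any of 4 arrays, with adjusted p up to 0.189 (ovarian CD4 replicates 1 and 2 and CD8 replicates 1 and 2). Its splenic call was lost without allogeneic CD4 replicate 1 or CD8 replicate 1 or 2 (adjusted p = 0.142, 0.0536 and 0.0504).

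Lgals3, which encodes galectin-3 and is also made by activated T cells, was the exception among the called genes. CD4 levels were 6.32 and 6.73 in the ovary, 6.32 and 5.48 in the allogeneic spleen and 3.38 and 3.33 in the syngeneic spleen. CD8 levels were 7.14, 7.08, 7.31 and 7.15 in the ovary, 7.62 and 7.38 in the allogeneic spleen and 2.88, 3.30 and 4.21 in the syngeneic spleen, with the spot of allogeneic splenic CD8 replicate 1 left out as an outlier. It was higher in CD8 cells of the allogeneic spleen by 1.60 ± 0.38 (SE, adjusted p = 0.0107), a call lost without CD8 replicate 2 or CD4 replicate 2 (adjusted p = 0.0572 and 0.077). In the ovary the difference was 0.65 ± 0.33 (SE, adjusted p = 0.211).

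The iron-handling genes of red pulp macrophages stood highest in the CD4 samples of the allogeneic spleen. Spic, the regulator of that lineage, stood in CD4 cells at -1.03 and 0.87 in the ovary, 4.70 and 3.79 in the allogeneic spleen and 0.90 and 2.66 in the syngeneic spleen. In CD8 cells it stood at -3.03, -2.69, 0.18 and -2.72 in the ovary, 0.72, 0.67 and -1.29 in the allogeneic spleen and -0.34, -0.87 and 1.13 in the syngeneic spleen. Slc40a1, the iron exporter ferroportin, stood in CD4 cells at -2.25 and 0.42 in the ovary, 2.19 and 2.93 in the allogeneic spleen and 0.90 and 1.74 in the syngeneic spleen. CD8 arrays gave -5.84, -4.95, -2.62 and -4.96 in the ovary, -4.77, -2.25 and -3.89 in the allogeneic spleen and -2.73, -4.21 and -3.03 in the syngeneic spleen, with 4 of 10 arrays above background. Hmox1, which breaks down haem, stood in CD4 cells at 0.76 and 2.00 in the ovary, 4.22 and 2.59 in the allogeneic spleen and 2.34 and 2.29 in the syngeneic spleen. In CD8 cells it stood at 0.024, 0.052, 0.44 and -0.05 in the ovary, 1.34, 1.29 and 0.19 in the allogeneic spleen and -0.01, -0.13 and 0.53 in the syngeneic spleen. Ovarian CD8 replicate 3 was the highest array of its group for all 3 genes. In the allogeneic spleen all 3 were lower in CD8 cells, with differences of -4.21 ± 1.03 (adjusted p = 0.0114), -6.19 ± 0.997 (adjusted p = 0.00124) and -2.46 ± 0.49 (adjusted p = 0.00401) for Spic, Slc40a1 and Hmox1. Slc40a1 was above background on 1 of 3 CD8 arrays there, so the size of its difference is uncertain. In the ovary Slc40a1 passed (-3.68 ± 0.95, adjusted p = 0.0223) with 1 of 4 CD8 arrays above background, so the size of its difference is uncertain, while Spic (-1.98 ± 0.97, adjusted p = 0.194) and Hmox1 (-1.26 ± 0.46, adjusted p = 0.0881) did not. The splenic call of Spic was lost without allogeneic CD4 replicate 1 (adjusted p = 0.0594). The ovarian call of Slc40a1 was lost under a common signal floor (adjusted p = 0.0791), on slide 1 alone (0.17), without the 2 dimmest arrays (0.258), with only the groups compared (0.0694), without ovarian CD4 replicate 2 (adjusted p = 0.279) or CD8 replicate 1, 2 or 4 (0.0552, 0.0535 and 0.0534). In the syngeneic spleen Slc40a1 (-4.64 ± 0.997, adjusted p = 0.0215) and Hmox1 (-2.18 ± 0.49, adjusted p = 0.028) were lower in CD8 cells. A second, dimmer Hmox1 probe gave -0.72 there (adjusted p = 0.454) and -1.05 in the allogeneic spleen (adjusted p = 0.0534), and with the mean of both probes the syngeneic call was lost (0.0714). Each gene lost its syngeneic call without either syngeneic CD4 array or without syngeneic CD8 replicate 2, and Hmox1 also without CD8 replicate 1 (highest adjusted p = 0.207 and 0.175).

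Ovary and spleen were told apart by few of these genes after allogeneic transplantation, and Cd5l and Trem2 were the ones called. In CD8 cells 1 of 29 genes passed, beside 0.376% of all features: Cd5l, at least 19.7-fold higher in the allogeneic spleen than in the ovary (adjusted p = 0.0312). In CD4 cells 2 of 29 passed, beside 0.777% of all features: Cd5l was lower in the ovary, with a difference of -5.23 ± 1.08 (SE, adjusted p = 0.0499), and Trem2 was at least 20.8-fold higher there (adjusted p = 0.0281). Trem2 entered the test only through the ovarian groups, and without the filter on dim probes its call was lost (adjusted p = 0.0654), as were those of Cd5l in CD8 (0.0661) and CD4 cells (0.134). The CD8 call of Cd5l was also lost with normexp background correction and quantile normalization (adjusted p = 0.272) and a common signal floor (0.527), and its CD4 call with the series matrix (0.0535). With only the groups compared in the fit, Cd5l (0.0724 in CD8 and 0.935 in CD4 cells) and Trem2 in CD4 cells (0.963) did not pass. The members' median differences, 0.14 and 0.024, lay near the 0.032 and -0.060 of all features, so no shift of the whole set was seen. Unadjusted p under 0.05 was reached by 10 and 9 genes, beside 7.95% and 15.3% of all features.

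The differences that follow did not pass the threshold. In CD4 cells the red pulp genes Spic (-4.32 ± 1.13, adjusted p = 0.108), Slc40a1 (-3.47 ± 1.09, adjusted p = 0.175) and Hmox1 (-2.03 ± 0.54, adjusted p = 0.113) had negative differences, and their arrays did not overlap, as was the case for 33.6% of all features. Lyz2 (2.26 ± 0.51, adjusted p = 0.0703), Msr1 (2.36 ± 0.74, adjusted p = 0.176) and Apoe (1.46 ± 0.44, adjusted p = 0.162) had positive ones, Msr1 with 1 of 2 splenic arrays above background. In CD8 cells Apoe (1.76 ± 0.34, adjusted p = 0.0515) and Lyz1 (2.67 ± 0.57, adjusted p = 0.0798) had positive differences with no overlap between arrays, which 12.4% of all features shared. Trem2 was above background on all 4 ovarian CD8 arrays and on 0 of 3 splenic ones, at least 1.78-fold higher (adjusted p = 0.249). The test of whether the tissue difference itself differed between CD8 and CD4 cells called 0 of 29 genes, beside 0.0223% of all features, and 1 gene reached an unadjusted p under 0.05, beside 11% of all features.

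The tissue calls rested on few arrays. Cd5l in CD8 cells lost its call when any of 5 arrays was left out, ovarian replicates 1, 2 and 4 and splenic replicates 1 and 2 (adjusted p = 0.095, 0.113, 0.109, 0.166 and 0.126). In CD4 cells it lost its call without ovarian or splenic replicate 1 (adjusted p = 0.128 and 0.126). Trem2 lost its call without splenic replicate 1 or ovarian replicate 2 (adjusted p = 0.0944 and 0.0708). With the slide as a block 2 genes were called in each subset, beside 0.71% and 1.49% of all features in CD8 and CD4 cells. On slide 1 alone 4 and 7 were called, beside 0.922% and 8.17%, with medians of 0.073 and -0.66. On slide 2 alone, where 0 of all features were called in either, 0 were called and the medians were 0.83 and 0.91.

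**Figure D4:**
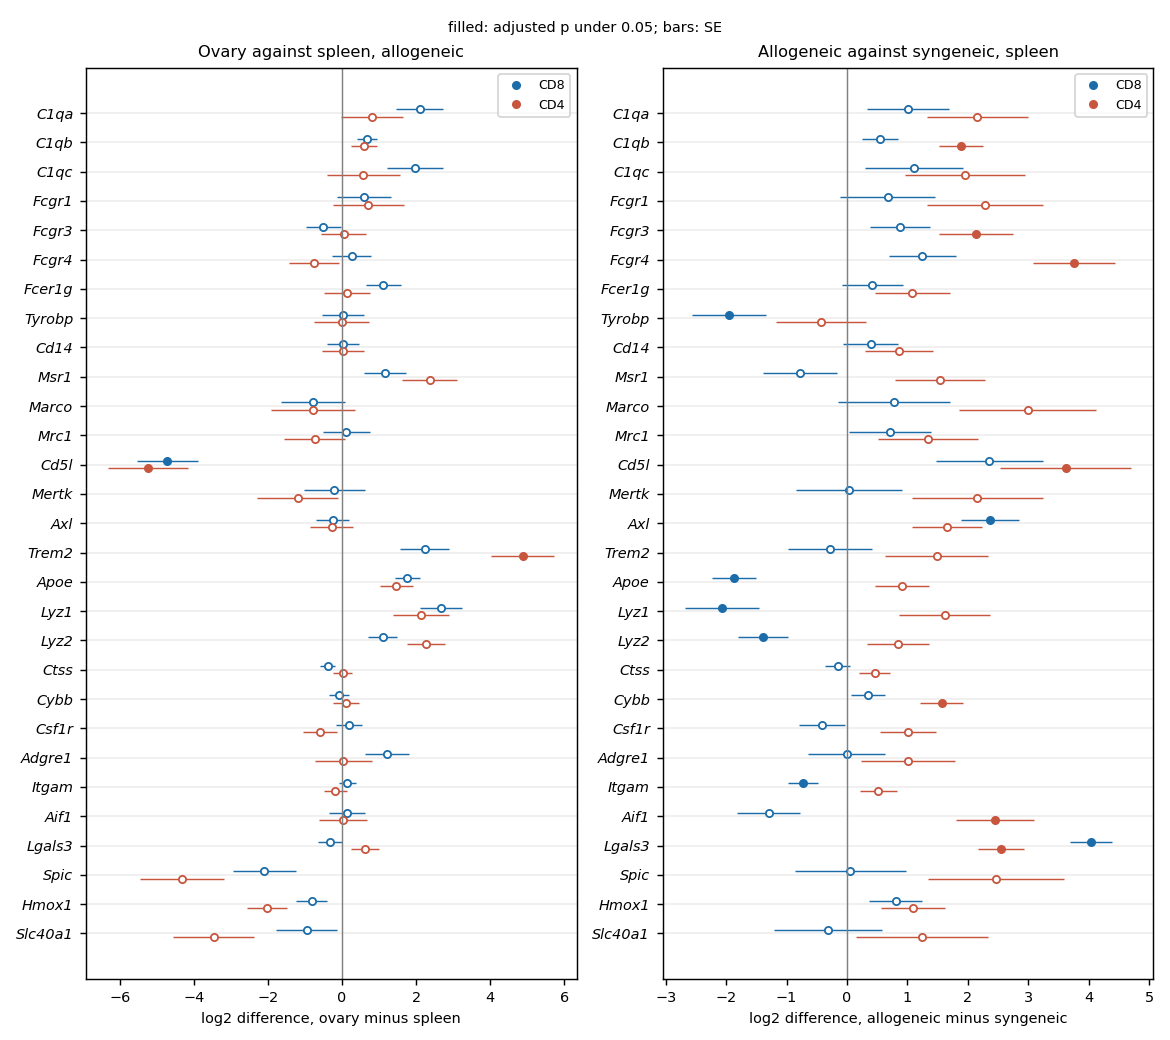
Differences in level (log2) of 29 tested genes for ovary minus spleen after allogeneic transplantation (left) and for allogeneic minus syngeneic transplantation in the spleen (right), in CD8 (blue) and CD4 (red) cells, with SE bars. Filled points passed an adjusted p under 0.05. Cd5l and Trem2 are filled at left, and at right the CD4 points lie right of 0 except Tyrobp, while CD8 points fall on both sides.

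Several myeloid transcripts were higher in splenic CD4 samples after allogeneic than after syngeneic transplantation, and splenic CD8 samples had no common direction. In CD4 cells 7 of 29 genes rose and 0 fell, beside 9.28% and 5.26% of all features. They were Fcgr4 (3.76 ± 0.68, adjusted p = 0.00371), Cd5l (3.62 ± 1.08, adjusted p = 0.0431), Lgals3 (2.55 ± 0.38, adjusted p = 0.00141), Aif1 (2.45 ± 0.64, adjusted p = 0.0248), Fcgr3 (2.13 ± 0.61, adjusted p = 0.0366), C1qb (1.89 ± 0.36, adjusted p = 0.00483) and Cybb (1.57 ± 0.35, adjusted p = 0.0117). A positive difference was seen for 28 of 29 genes, the exception being Tyrobp, and the median was 1.57 beside 0.025 over all features. Of the 14 members above background on all arrays 4 rose, beside 13.1% of such features. C1qb, Fcgr4 and Lgals3 kept their call under every array left out. With only the groups compared in the fit, where 0 of all features were called, they lost their calls (adjusted p = 0.0947, 0.127 and 0.0948). Cd5l and Fcgr3 lost theirs without any 1 of the 4 arrays (highest adjusted p = 0.235 and 0.181). Aif1 lost its call without allogeneic replicate 1 or either syngeneic array (highest 0.153), and Cybb without syngeneic replicate 1 (0.124). The count was 3 without syngeneic replicate 1, and 4 without allogeneic replicate 1 or syngeneic replicate 2.

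In splenic CD8 cells 2 genes rose and 5 fell, where 37.2% of all features changed (16.9% higher, 20.3% lower), so the members' share was below that of the array. Lgals3 rose by 4.04 ± 0.34 (SE, adjusted p = 5.05e-06), and all allogeneic arrays lay above all syngeneic ones. Axl rose by 2.37 ± 0.48 (SE, adjusted p = 0.0021). Apoe (-1.87 ± 0.36, adjusted p = 0.00152), Lyz1 (-2.07 ± 0.61, adjusted p = 0.0188), Lyz2 (-1.39 ± 0.42, adjusted p = 0.0207), Tyrobp (-1.96 ± 0.61, adjusted p = 0.0248) and Itgam (-0.73 ± 0.25, adjusted p = 0.0357) fell, although the other 2 Itgam probes gave 0.11 and 0.50. Lgals3, Axl and Apoe kept their call under every array left out. The others rested on syngeneic replicate 3: without it 3 members were called, and Tyrobp, Lyz1 and Lyz2 lost their calls (adjusted p = 0.104, 0.0811 and 0.066). Itgam lost its call too (0.0946), and also without allogeneic replicate 1 or 2 or syngeneic replicate 2 (0.144, 0.0702 and 0.0971). Tyrobp did so without allogeneic replicate 1 or 2 (0.0708 and 0.0701), and Lyz2 without syngeneic replicate 1 (0.0565). Without allogeneic replicate 3, the low array for C1q and Axl, 13 members were called, and Lyz1 and Lyz2 again were not (0.0661 and 0.0709). Lyz2, above background on 1 of 3 allogeneic CD8 arrays, also lost its call under quantile normalization (adjusted p = 0.102), normexp correction (0.491), slide 1 alone (0.0726) and a common signal floor, where the difference was 0. Lyz1 lost its call with normexp correction (0.105).

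The transplant difference was called as unequal between subsets for 3 of 29 genes, a share near the 10.5% of all features called in that test: Aif1 (-3.75 ± 0.83, adjusted p = 0.0163), Lyz1 (-3.69 ± 0.97, adjusted p = 0.0326) and Apoe (-2.78 ± 0.57, adjusted p = 0.0114). These values are the CD8 difference minus the CD4 difference, and 11 members reached an unadjusted p under 0.05, beside 28.4% of all features. Apoe kept its call under every array left out. Aif1 and Lyz1 lost theirs without syngeneic CD4 replicate 1 (adjusted p = 0.0639 and 0.136), which left 1 call in all. Lyz1 also lost its call without syngeneic CD8 replicate 3, allogeneic CD4 replicate 2 or allogeneic CD8 replicate 2 (0.0601, 0.0928 and 0.0535). Without allogeneic CD4 replicate 1, or without syngeneic CD4 replicate 2, 5 members were called. With the slide as a block, 7 members were called for the transplant in CD8 cells, 8 in CD4 cells and 4 for the interaction, beside 41.2%, 20.4% and 15.1% of all features. On slide 1 alone the counts were 17, 16 and 9, beside 37.5%, 25.3% and 14.9%. On slide 2 alone they were 1, 0 and 0, where 1848, 0 and 0 of all features were called. The comparisons share arrays, as both the tissue and the transplant difference use the allogeneic splenic groups.

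A wider list of 60 mononuclear phagocyte genes, of which 55 were tested, ran the same way between subsets. In the ovary 30 were lower and 2 higher in CD8 cells, in the allogeneic spleen 27 and 8, and in the syngeneic spleen 12 and 2. The shares of all features given above were 8.05% and 7.12%, 13.7% and 13%, and 2.52% and 1.13%, so the higher calls in the allogeneic spleen were near the background. In the ovary the genes with the smallest adjusted p were Siglec1, a sialic acid receptor (-5.20 ± 0.44, adjusted p = 2.57e-05), Gpnmb, a lysosomal glycoprotein (at least 7.85-fold higher in CD4 cells), the cholesterol exporter Abca1 (at least 12.5-fold), the scavenger receptor Stab1 (-5.43 ± 0.55) and Maf (-2.75 ± 0.31). Maf is a transcription factor that helper T cells also use. In the allogeneic spleen they were Maf, Pparg, Lpl, Stab1 and Clec4n (-5.02 for Lpl and -2.66 for Pparg). Gpnmb, which often accompanies Trem2 in lipid-laden macrophages, was at least 3.06-fold higher in ovarian than in splenic CD4 cells (adjusted p = 0.027). No array of ovarian CD8 or allogeneic splenic CD4 cells was above background for Gpnmb. The filter on dim probes may thus have favoured its ovarian CD4 level, and its call without that filter is not given here. Abcg1 was lower in ovarian than in splenic CD4 cells, with a difference of -0.87 ± 0.16 (SE, adjusted p = 0.0359). In CD8 cells Abca1 was at least 3.93-fold higher in the spleen (adjusted p = 0.00341). With allogeneic transplantation 16 of the wider genes rose and 1 fell in CD4 cells, beside 9.28% and 5.26% of all features. In CD8 cells 12 rose and 6 fell, beside 16.9% and 20.3%. Lilrb4a, Cx3cr1, Ms4a6d and Spp1 were among the leading rises in both subsets (Cx3cr1 5.47 ± 0.39 in CD8 and 3.05 ± 0.48 in CD4 cells), and Lilrb4a and Cx3cr1 are known from effector T cells as well.

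Markers of other cells moved in part with these results, and their part was not tested. The summed linear signal of 32 members (75th percentile = 1), led by Itgam and Ctss, was 248 to 483 in ovarian CD4 and 378 to 390.2 in allogeneic splenic CD4 samples. It was 153 to 249 in syngeneic splenic CD4 samples and 85.7 to 179.8 over the CD8 groups. Itgam and Ctss made up most of the sum in CD8 samples, and the direction of Itgam was not settled by its probes. The member sums of CD8 samples therefore say little about the other members. Lgals3, the 1 member called higher in CD8 cells, is not in this sum, as it lacked a value on 1 array. With levels of 7.08 to 7.62 in allogeneic CD8 samples, beside 3.33 and 3.38 in syngeneic CD4 samples, it would raise the allogeneic CD8 sums most. The B cell sum (15 genes, led by Cd72 and Cd79b) was 63.5 to 121 in syngeneic splenic CD4 samples, 16.1 to 16.2 in allogeneic splenic CD4 samples and 6.64 to 8.49 in ovarian CD4 samples, so that among CD4 groups it was lowest where the member sum was high. In CD8 samples it was 29.8 to 44.8, 8.85 to 12.2 and 6.30 to 7.48 in the same order, beside member sums of 119 to 179.8, 87.7 to 104.6 and 85.7 to 112. Of 14 tested B cell genes 9 fell with allogeneic transplantation in CD4 cells and 11 in CD8 cells, and in CD8 against CD4 cells 1 was higher and 4 lower in the allogeneic spleen and 0 and 1 in the ovary. Dendritic cell genes (13 tested, led by Bst2 and Wdfy4) gave 5 higher and 0 lower in CD8 cells of the allogeneic spleen and 1 and 0 in the ovary, against the direction of the members. Neutrophil genes (8 tested, led by Csf3r and Elane) gave 1 higher and 0 lower in each of those sources. NK cell genes (7 tested, led by Eomes and Tyrobp) gave 4 higher and 2 lower in each, the 2 lower being the members Tyrobp and Fcer1g. Plasma cell genes (5 tested, led by Xbp1 and Prdm1) gave 0 higher and 1 lower in the allogeneic spleen.

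Of 7 tested granulosa genes (led by Foxl2 and Nr5a2) 2 were higher in ovarian than splenic CD4 cells and 1 in CD8 cells, and their sum was 32.2 to 32.8 in ovarian CD4 samples and 19.5 to 27.8 elsewhere. In CD8 against CD4 cells of the ovary 1 granulosa gene was higher and 2 were lower, and in the allogeneic spleen 0 and 1. Of 7 tested theca and luteal genes (led by Cyp17a1 and Nr5a1) 2 were higher in ovarian than splenic CD8 cells and 1 in CD4 cells, and in CD8 against CD4 cells 0 were higher in either allogeneic source, with 1 lower in the ovary and 2 in the spleen. Of 4 tested endothelial genes (led by Kdr and Pecam1) 0 were higher and 2 lower in CD8 cells of each allogeneic source, and of 5 stromal genes (led by Sparc and Col1a2) 1 was higher and 1 lower in the ovary and 1 and 2 in the allogeneic spleen. Among the 10 stromal genes Col3a1, Pdgfra, Pdgfrb and Tcf21 were above background on 0 of 16 arrays, and among the 9 endothelial genes so were Tie1, Emcn and Cldn5. Mast cell and basophil genes (3 tested) and erythroid and platelet genes (5 tested) gave 1 lower each in ovarian CD8 against CD4 cells. The T cell sum (15 genes, led by Lck and Thy1) ran from 1330.0 to 1999.6 in CD4 and from 1417 to 1996 in CD8 samples.

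**Figure D5:**
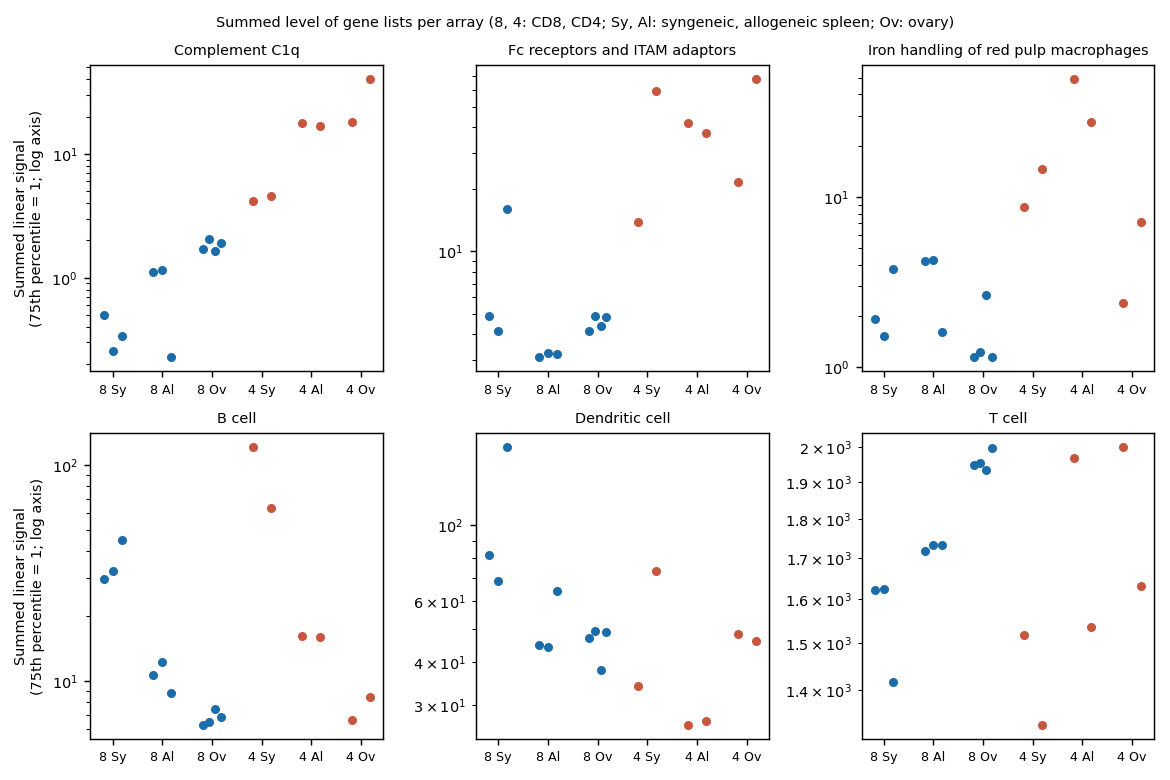
Summed linear signal of 6 gene lists on each array (log axis, the array's 75th percentile set to 1), by group, with CD8 in blue and CD4 in red. The C1q sum is higher in the CD4 than the CD8 samples of every source, the Fc receptor sum overlaps in the syngeneic spleen and the iron-handling sum in the ovary, the B cell sum is highest in syngeneic CD4 samples, and the T cell sum spans a narrow range.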

How the data were processed

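Cy3-labelled RNA of 16 samples in 6 groups was hybridised to one-colour Agilent arrays. The authors deposited scanner tables of spot intensity, from which Agilent Feature Extraction had removed background and spatial trend per the file headers, with calls of spots well above background and outlier flags. The deposited series matrix holds log2 values whose scale and centring are not stated. Set against log2 intensity minus the array's 75th percentile and the probe's median over arrays, it gave r of at least 0.9998 on every array, and its direction is the same.

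Here the log2 processed signal was shifted by each array's 75th percentile. Outlier spots were left out, which made 1 tested member (Lgals3) lack a value on 1 array, and saturated spots numbered 0 on every array. Probes were named by matching accessions to a RefSeq table (GRCm38.p6): 27656 of 55681 probes had a symbol and 28025 none. The files' coordinates are of another build and are not printed. A probe was kept if all arrays of 1 or more groups had it well above background. A gene was represented by its probe of highest mean, while unnamed probes stayed separate. That left 26891 features. A limma model (version 3.58.1, R 4.3.3) took all 16 arrays and gave each group its own mean, with 10 residual and 2.21 prior degrees of freedom and 9 contrasts, and a feature was called at an adjusted p under 0.05. The method was tested on simulated data. Where a group had no array above background, the brighter group's mean was set against, per array, the higher of the lowest signal among probes well above background and the dim probe's own, giving "at least N-fold".

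The 34 genes and the other lists were chosen with earlier results of these data known. Values are given for every member called in a comparison or on which its role group turns. Of the wider list at most the 5 called genes with the smallest adjusted p per comparison are named, and of other cell lists the 2 with the highest mean, besides those above background on 0 arrays. Alternatives were quantile normalization, normexp background correction (offset 50) with quantile normalization, the series matrix, other filters, the mean of a gene's probes, slide and replicate blocks, each slide alone, only the groups compared, and leaving out each array. A common signal floor and leaving out the 2 dimmest arrays were added after the data had been seen. The number of arrays limits the precision.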

Additional observations from a re-analysis of the deposited data

Results flagged for a closer look

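Within the 4 ovarian CD8 samples, 29 genes were examined for a lone array by Dixon's gap ratio (the gap to the nearest array over the group's range, critical value 0.829), which chance alone exceeds in about 1 of 20 groups, and 4 exceeded it. For Spic, the regulator of red pulp macrophages, replicate 3 stood at 0.18, above the other 3 arrays (-3.03 to -2.69), with a ratio of 0.892. For Marco, the marginal zone scavenger receptor, replicate 3 stood at -2.24, below the others (-0.80 to -0.60), with a ratio of 0.875. Apoe had its low array in replicate 1 (1.19 against 1.55 to 1.59, ratio 0.912), as did Aif1 (2.04 against 2.54 to 2.58, ratio 0.926).

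The difference between allogeneic and syngeneic transplantation was not the same in splenic CD8 and CD4 cells for 3 of 29 genes, by the interaction term of the limma model, which called 10.5% of all features, so the members' share is near the background. CD8 minus CD4 gave -2.78 ± 0.57 for Apoe (SE, adjusted p = 0.0114), -3.69 ± 0.97 for Lyz1 (adjusted p = 0.0326) and -3.75 ± 0.83 for Aif1 (adjusted p = 0.0163). In CD8 cells Apoe and Lyz1 fell, and in CD4 cells Aif1 rose. Without syngeneic CD4 replicate 1, Aif1 (adjusted p = 0.0639) and Lyz1 (adjusted p = 0.136) lost this call.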

How the results depend on the processing

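Counts of called genes run in the order ovary against spleen in CD8 and CD4 cells, allogeneic against syngeneic spleen in CD8 and CD4 cells, CD8 against CD4 cells in ovary, allogeneic and syngeneic spleen, and the tissue and transplant interactions, and were 1, 2, 7, 7, 25, 29, 11, 0 and 3. Quantile normalization gave 1, 2, 7, 7, 26, 27, 11, 0 and 3. With normexp background correction the counts were 0, 6, 5, 15, 23, 25, 9, 0 and 4. The series matrix gave 1, 1, 7, 7, 25, 29, 11, 0 and 3. Without a filter on dim probes they were 0, 0, 6, 4, 25, 29, 8, 0 and 2, and with the 14 genes above background on all 16 arrays 1, 0, 5, 4, 10, 14, 3, 0 and 4. The mean of a gene's probes gave 2, 2, 6, 7, 25, 28, 10, 0 and 3, and the slide as a block 2, 2, 7, 8, 26, 29, 13, 0 and 4. On slide 1 alone they were 4, 7, 17, 16, 21, 26, 8, 4 and 9, and on slide 2 alone 0, 0, 1, 0, 0, 0, 0, 0 and 0. Only the groups compared gave 3, 0, 7, 0, 25, 15, 11, 0 and 1. Of the alternatives chosen after seeing the data, a common signal floor gave 0, 4, 6, 10, 21, 26, 9, 1 and 7, and leaving out the 2 dimmest arrays 4, 3, 9, 9, 14, 26, 13, 1 and 3. Leaving out each array in turn gave 0 to 1, 0 to 4, 3 to 13, 3 to 6, 13 to 27, 25 to 28, 2 to 11, 0 to 0 and 1 to 5. Where that left 1 array in a group, it was assumed to vary like the others. Fewer arrays or genes enter the fits of single slides, of the groups compared and of the strict filter. The cause of the other shifts was not tested.

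Spic in CD8 cells, ovary minus spleen, turned to 0.020 on slide 2 alone. The median over all features in splenic CD8 cells, allogeneic minus syngeneic, was -0.21, and -0.11 under quantile normalization. In the tissue interaction 83.3% of called features were higher, and 46.9% under quantile normalization.

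Replicate numbers were shared between groups, but the labels name no shared animal or batch, and same-numbered samples deviated together in only some pairs (0.067, 0.16 and 0.32 in CD8 cells of ovary and spleen). With the replicate block the counts were 0, 1, 8, 6, 26, 29, 10, 0 and 4. Besides those given in the report, calls of CD8 against CD4 cells lost under normexp correction or the signal floor were Cd5l and Mertk in the ovary, Msr1 in both allogeneic sources, Lyz2, Itgam and Trem2 in the allogeneic spleen, and Cd14 and Cybb in the syngeneic spleen. Signal near background limits the folds of Msr1, Mertk, Mrc1, Cybb, Cd5l and Trem2 to lower bounds in the groups named, and leaves that of Slc40a1 in the ovary and allogeneic spleen uncertain. For Msr1 the lower bound holds in the ovary only, and the size in the allogeneic spleen is uncertain. Sizes are likewise uncertain for C1qa and Cd14 in the syngeneic spleen and for Fcgr1 and Lyz2 in the allogeneic spleen. Each of these was above background on 1 of 3 CD8 arrays there.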
